A study of Drosophila melanogaster with 3 samples.

Results

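The last stretch of chromosome arm 3L before the centromere was examined for peaks of heterochromatin protein 1 (HP1) in Drosophila melanogaster embryos. It was taken as every deposited peak on 3L whose midpoint lies at or beyond position 21500000 of FlyBase release 5, a rule on position alone. This gave 570 peaks, which are 79.8% of the 714 peaks on 3L and 3.62% of the 15755 peaks of the whole list. They lay within 12.4% of the length of the arm and made up 83.8% of its bases under peaks.

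The series holds 2 HP1 ChIP samples and 1 input DNA sample, all from whole embryos 8 to 16 h old, and the strain is given as Y cn bw sp. The ChIP used a rabbit polyclonal antibody raised against full-length fly HP1. All 3 samples share 1 genotype. It carries y[1] and oc[R3.2], then Gr22b[1], Gr22d[1] and cn[1] with CG33964[R4.2], bw[1] and sp[1], and also LysC[1] and lab[R4.2] with MstProx[1], GstD5[1] and Rh6[1], and the labels name no treatment. Whole embryos mix many cell types, so the peaks do not tell in which cells HP1 was bound. One peak list stands for the whole series and does not say which sample a peak came from. No value below therefore has a replicate error, no difference was tested, and the read depth behind the peaks is unknown.

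HP1 is a structural protein of heterochromatin, the compact chromatin that flanks centromeres. Its chromodomain binds histone H3 methylated at lysine 9, its chromoshadow domain pairs HP1 molecules and recruits partners, among them enzymes that methylate the same lysine, and this is how an HP1-coated domain can extend along a chromosome. Pericentric heterochromatin of the fly is rich in transposon remnants and other repeats, yet it also holds active genes. Euchromatic genes moved next to it by a rearrangement are silenced in some cells and not in others, which is known as position effect variegation.

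The stretch held 2 very different parts. Dense HP1 coverage began at 23.0 Mb and continued to the last peak of the arm, which ended at 24543374. The start was set as the first 100 kb bin with at least 10% of its bases under peaks after which every later bin also reached 10%. The 1.54 Mb beyond it held 548 peaks that covered 47.8% of the sequence, whereas the 1.5 Mb before it held 22 peaks that covered 1.31%. Since this limit was read from the coverage itself, the contrast is a description. The step was abrupt at the scale of 100 kb. The bin from 22.9 to 23.0 Mb held no peak, and the bin from 23.0 to 23.1 Mb held 30 peaks and had 39.5% of its bases covered. With the bins placed in this way, none before 23.0 Mb exceeded 6.52%, and none after it was below 31.0%.

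**Figure D1:**
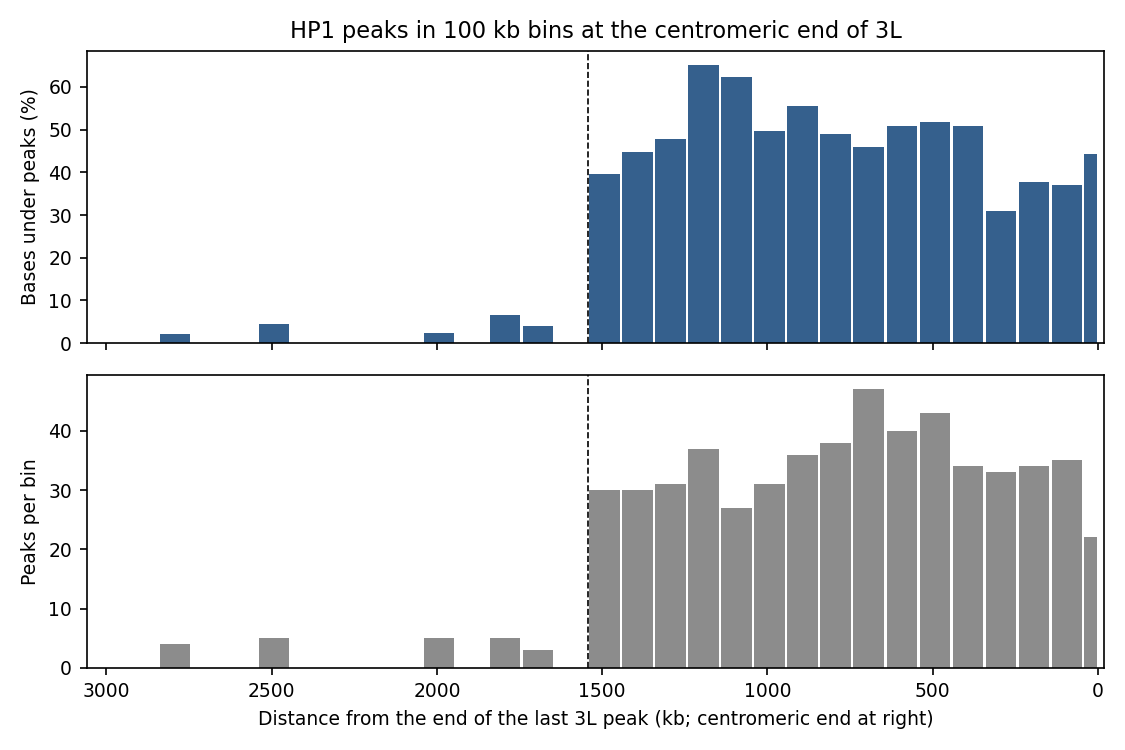
Share of bases under HP1 peaks (top) and number of peaks (bottom) in 100 kb bins from 21500000 to the end of the last 3L peak, plotted by distance from that end; the last bin is shorter, and the dashed line marks 23.0 Mb. The 15 bins before the line sit between 0 and 6.52% covered, and the 16 after it between 31.0 and 65.2%.

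At finer scale the edge was made of single peaks before it became a chain. The last peak before it, from 22859773 to 22860138, stood alone, and the 150742 bp that follow held none. The first peak of the dense part ran from 23010881 to 23011668 and had the low score of 12.96. The score is the authors' own value per peak, of unstated definition, and is used here only within the list, whose median was 20.96. A second single peak of 1199 bp followed after 12955 bp, and the first long chain began at 23032132, 6309 bp further on. In 25 kb bins, coverage was 0% from 22975001 to 23000000, 4.66% in the next bin and 64.4% from 23025001 to 23050000. Most of the step thus lay within 1 or 2 bins of 25 kb.

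The 22 peaks before 23.0 Mb lay in 6 small groups separated by long empty sequence. The rule's limit itself fell in such empty sequence. The nearest peak outside ran from 21367769 to 21368199 (score 16.84), and the first inside from 21742940 to 21743319 (score 12.28). The groups were small and tightly packed. From the distal side, a group of 4 peaks spanned 3587 bp from 21742940, a group of 5 spanned 5083 bp from 22093425, and another 5 spanned 3606 bp from 22571206. Nearer to the edge, 4 peaks spanned 4645 bp from 22755063 and 3 peaks spanned 6629 bp from 22797600. The sixth was the lone peak named above. The 3 peaks from 22797600 were the strongest of these, with scores of 56.1, 44.5 and 32.7 and widths of 2516, 2577 and 998 bp. The highest scores in the groups before them were 28.5, 30.3, 28.5 and 27.1.

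In group size and spacing, these groups were nearer to those on the rest of the arm than to the dense part beside them. In median peak score they were not, and their median width lay between those of the other 2 parts. The 22 peaks formed 1 group per 0.25 Mb, and the largest group had 5 peaks. The 144 peaks distal to 21500000 formed 57 groups, 1 per 0.377 Mb, and the largest had 7 peaks. The median score was 21.4 for the 22 peaks, 21.4 in the dense part and 16.4 distal to 21500000. The upper quartile of score, at 28.2, 42.3 and 26.0 in the same order, was nearer to the rest of the arm. The median width was 638.5 bp for the 22 peaks, 710 bp in the dense part and 553.5 bp distal to 21500000. None of the 22 peaks reached a width of 3 kb, while 62 of the 548 dense peaks and 9 of the 144 did. Whether the spacing of groups differs between the 2 parts was not tested.

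Beyond 23.0 Mb the HP1 peaks formed long chains. A chain joins neighbouring peaks whose gap is below 5 kb. Only 37 of the 547 gaps in the dense part reached that length, so long chains there follow from how densely its peaks lie. The contrast in chain size with sparser sequence is a description. The whole stretch had 44 chains, 27 of them with at least 5 peaks, and those 27 held 544 of the 570 peaks (95.4%). Distal to 21500000, 35.4% of the peaks were in chains of that size. With joining below 2 kb, chains of at least 5 peaks held 413 of the 570, so the share depends on the joining distance. In the dense part, 25 chains of at least 5 peaks spanned from 7554 to 149702 bp, with a median of 36201 bp, and together took up 77.8% of the sequence. Between 31.0 and 80.2% of the bases in each were under peaks, with a median of 59.1%. Chain length and the share covered were only loosely related (Spearman's rho 0.24 across the 25 chains, which lie side by side and are not independent).

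The 6 chains longer than 50 kb held 264 of the 548 dense peaks (48.2%). The most peaks, 59, lay in a chain from 23835433 to 23935111, which was 99679 bp long and 49.8% covered, with a highest score of 67.3. The longest chain, from 23331565, was 149702 bp long with 54 peaks and was 73.6% covered, and its highest score was 122.1. The chain with most peaks was therefore neither the longest nor the most covered, and the median width of its peaks was 640 bp against 908 bp in the longest.

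Of the other long chains, one from 24016007 to 24130896 had 52 peaks over 114890 bp, 61.8% of it covered. One from 24240977 to 24345594 had 44 peaks over 104618 bp and was 46.7% covered. One from 23583538 to 23664177 had 35 peaks over 80640 bp and was 74.1% covered, the highest share among these 5. Its peaks also had the highest median score of the 5, 38.65. The next 5 by number of peaks had 20 to 23 each and spanned 36201 to 51677 bp. They started at 23713708, 24454619, 23781349, 24137458 and 23072705, and another chain of 20 peaks, from 24508478 to the last peak of the arm, was shorter than these. The chain from 23781349 was 77.7% covered, the highest of those 5, and the one from 24454619 was the lowest with 52.6%.

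**Figure D2:**
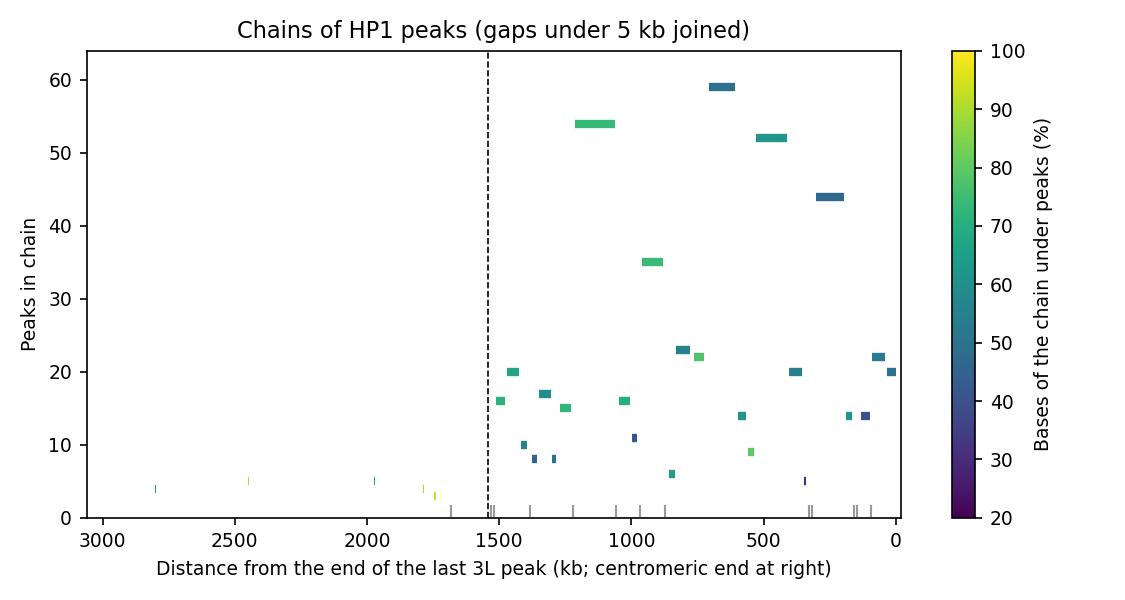
Chains of HP1 peaks by distance from the end of the last 3L peak; each bar spans 1 chain at the height of its number of peaks, coloured by the share of its bases under peaks, and grey ticks are single peaks. Chains before the dashed line at 23.0 Mb hold at most 5 peaks, and those after it reach 59.

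In 12 places of the dense part a single peak stood alone, at least 5 kb from both neighbours. Their scores lay between 8.32 and 94.35, at a median of 15.5, and 2 of the 12 reached the whole list's median of 20.96. The exception at the top was a peak of 3020 bp from 23671186 to 23674205. Peaks at the 2 ends of chains of 5 or more were close in size to those inside. The 50 end peaks had a median width of 691.5 bp and a median score of 23.6, and the 484 inner peaks had 719.5 bp and 22.1. Chains were therefore not edged mainly by small, weak peaks. Peaks of 3 kb or more made up 8.0% of the end peaks and 11.8% of the inner ones, and these differences were not tested.

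No gap between HP1 peaks in the dense part reached 18 kb. The longest, 17883 bp, ran from 23817550 to 23835432, and a gap of 17861 bp from 23763488 to 23781348, so that the chain of 22 peaks from 23781349 lay between the 2 longest gaps. The next, 14644 bp, ran from 24395163 to 24409806. Before 23.0 Mb, the longest gaps were of another order. Most of the 21 gaps between the peaks there were short, with a median of 442 bp and 16 (76.2%) below 1 kb. The 6 longest gaps of the whole stretch all lay there or led up to its edge, and measured 472698, 346898, 180251, 150742, 55544 and 37892 bp. The longest of them, from 22098508 to 22571205, was 26.4 times the longest gap of the dense part.

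Most gaps in the dense part were short. Their median was 516 bp, and 363 of 547 (66.4%) were below 1 kb. These short gaps took up 8.26% of the sequence, gaps of 1 to 5 kb took up 22.5%, and the 37 gaps of 5 kb or more took up 20.7%. Only 8 gaps reached 10 kb, and they parted the dense sequence into 9 runs. The largest run, from 23271477 to 23763487, was 492011 bp long with 164 peaks and was 58.4% covered. The other runs of over 100 kb were 234259 bp (47.5% covered), 198040 bp (51.2%), 170246 bp (39.3%) and 133568 bp (42.2%), and the last of these reached the end of the arm. The shortest distance between neighbours was 45 bp, which is also the shortest in the whole list, and no peak was narrower than 200 bp. With peaks less than 1 kb apart merged, the 548 peaks became 185 blocks that covered 56.1% of the dense part. The largest block held 24 peaks and ran over 52143 bp from 23335421 to 23387563.

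**Figure D3:**
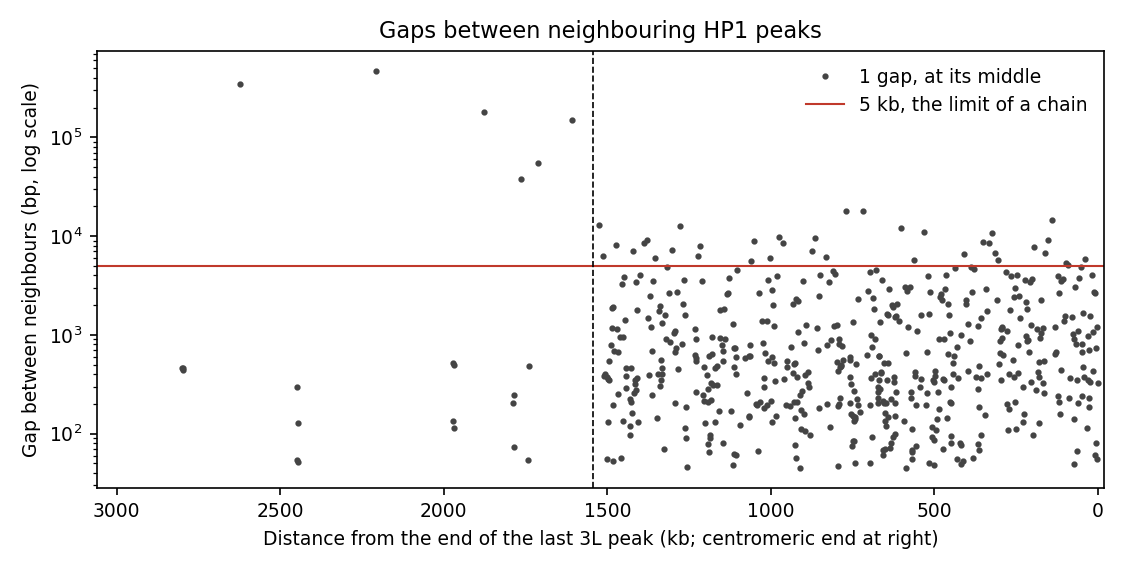
Length of each gap between neighbouring HP1 peaks on a log scale, by distance from the end of the last 3L peak; the red line marks 5 kb and the dashed line 23.0 Mb. Gaps of more than 30 kb are seen only before the dashed line, and after it the highest point is 17883 bp.

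Within the dense part, coverage was not highest at the centromeric end. It was 39.5, 44.8 and 47.7% in the first 3 bins of 100 kb, and 65.2 and 62.3% in the bins from 23.3 and 23.4 Mb. From 23.5 to 24.2 Mb it stayed between 45.8 and 55.6%. The bins from 24.2, 24.3 and 24.4 Mb had 31.0, 37.6 and 37.1%, and the last 43374 bp had 44.3%. From distal to centromeric, coverage therefore rose to the bin from 23.3 Mb and was lower in every bin after it. The fall was not steady, and the last 43374 bp were better covered than the 3 bins before them. The last 500 kb were 41.6% covered, against 51.9% in the 500 kb from 23.0 Mb, a ratio of 0.80. In 25 kb bins the spread was wide, from 4.66% to 96.1% with a median of 52.1% over 62 bins, of which 3 were below 10%. The highest of these ran from 23450001 to 23475000.

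Peak number followed another course. The bins with the most HP1 peaks were those from 23.8, 24.0 and 23.9 Mb, with 47, 43 and 40 peaks, where coverage was 45.8 to 51.8%. The well-covered bin from 23.4 Mb held 27 peaks, the fewest of the full bins beyond 23.0 Mb. The bins with most peaks were thus not the bins with most coverage. Over the 15 full bins of the dense part, the rank correlation with position towards the centromere was 0.47 for the number of peaks, -0.30 for coverage, -0.57 for median width and -0.39 for median score. Across the 548 peaks of the dense part, the rank correlation with position was weaker, at -0.15 for width and -0.15 for score. Neighbouring bins share chains, neighbouring peaks are not independent, and these values are a description.

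Peaks were narrower near the centromeric end of the dense part. The median width was 795 bp in the band from 23.0 to 23.5 Mb, 753.5 bp from 23.5 to 24.0 Mb, 511 bp from 24.0 to 24.5 Mb and 354 bp in the remaining 43374 bp. Peaks under 500 bp made up 49.2% of the 185 peaks in the last 500 kb, against 34.2% of the 155 peaks in the 500 kb from 23.0 Mb. The upper quartile of width differed less between these bands, at 1734.5, 1596, 1494 and 1356 bp. The lower median near the end therefore went with a larger share of small peaks.

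Median scores were also lower near the centromeric end. The median score was 23.4, 23.9, 18.6 and 17.1 in these 4 bands. Among peaks under 500 bp alone, the median score was 13.1, 12.7, 11.9 and 11.1. Score and width were closely tied (Spearman's rho 0.87 across the 570 peaks, which are not independent), so the 2 measures are not separate evidence. Before 23.0 Mb, the 3 bands of 500 kb held 4, 5 and 13 peaks, with median widths of 332, 634 and 779 bp and median scores of 10.6, 21.1 and 22.3. Taken over the whole stretch, the last 500 kb had a median width higher by 168 bp and a median score higher by 7.96 than the first 500 kb, but that first window held only 4 peaks. With peaks less than 1 kb apart merged, both directions turned, to -1769 bp and -1.58.

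**Figure D4:**
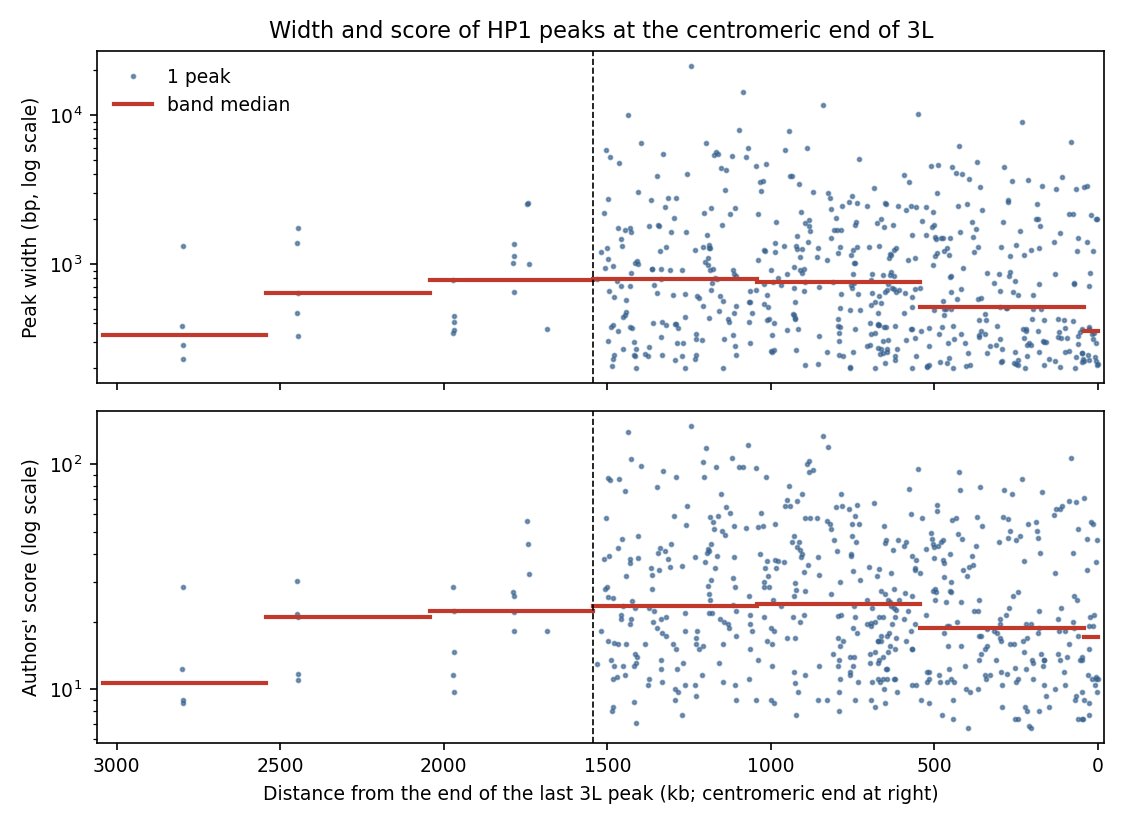
Width (top) and the authors' score (bottom) of each of the 570 HP1 peaks on log scales, by distance from the end of the last 3L peak; red lines are medians of 500 kb bands, and the last, short line covers 43374 bp. The median width is 795 bp in the first band after the dashed line at 23.0 Mb and 354 bp in the last.

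A small number of broad HP1 peaks carried much of the coverage. The 62 peaks of 3 kb or more, all beyond 23.0 Mb, were 10.9% of the peaks and held 43.3% of the bases under peaks, while the 224 peaks under 500 bp were 39.3% of the peaks and held 9.37%. Such a share was not particular to this stretch. Peaks of 3 kb or more held 37.8% of the covered bases distal to 21500000 and 40.5% on 3LHet, separately assembled heterochromatin. Over the same length at the centromeric ends of 2L and 2R they held 47.3% and 57.9%. Along the dense part of 3L, broad peaks held 56.7% of the covered bases from 23.0 to 23.5 Mb, 35.85% from 23.5 to 24.0 Mb and 40.4% from 24.0 to 24.5 Mb. In the last 500 kb they held 41.3%, so the share did not fall steadily towards the centromeric end. The widest, 21399 bp from 23288299 to 23309697, also had the highest score, 148.8. The next widest measured 14197 bp (from 23450240, score 97.5), 11627 bp (from 23695921, score 133.6) and 10117 bp (from 23989770, score 95.9). The other 6 of the 10 widest measured 6518 to 9974 bp, with scores between 79.8 and 139.9.

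The highest scores lay towards the distal side of the dense part. Of the 10 highest, 9 lay between 23101538 and 23719006. The other, with 106.55, ran from 24457636 to 24464242 and lay only 82.4 kb from the end of the last peak. After the highest came 139.9 (9974 bp from 23101538), 133.6 (11627 bp from 23695921), 122.1 (6025 bp from 23470475), 119.6 (3002 bp from 23716005) and 118.3 (6475 bp from 23341534). The remaining 3 scored from 103.9 to 106.4, and 2 of them were narrow for such a score, at 1649 bp from 23116304 and 1800 bp from 23660608. A score above 100 was thus reached by peaks of very different width. By band, the highest score was 28.5 from 21500000, 30.3 from 22.0 Mb, 56.1 from 22.5 Mb, 148.8 from 23.0 Mb, 133.6 from 23.5 Mb, 106.55 from 24.0 Mb and 71.0 from 24.5 Mb, the last in a peak from 24498681 to 24501973.

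The centromeric ends of 2L and 2R were set beside that of 3L, and the other arms were not compared here. Over the same length of 3.04 Mb, peaks covered 24.9% of the 3L end, 16.3% of 2L and 33.1% of 2R. The centromeric end was taken as the end of the last peak on 3L and 2L, and as the first base of 2R. Counted in 100 kb bins from that end, the unbroken run of bins with at least 10% covered was 1600 kb on 3L, 800 kb on 2L and 1600 kb on 2R. The outermost bin of the 3L run had 12.2% covered and that of 2R 27.0%. The inner 1 Mb was 45.3% covered on 3L, 45.1% on 2L and 62.4% on 2R, and the second Mb 29.8% on 3L, 1.83% on 2L and 30.5% on 2R. On each arm the best covered bin was not the innermost. It lay 1100 to 1200 kb from the end on 3L (68.4%), 400 to 500 kb on 2L (67.0%) and 900 to 1000 kb on 2R (81.7%). Farther out, the remaining 1.04 Mb was 0.65% covered on 3L, 2.53% on 2L and 7.54% on 2R.

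**Figure D5:**
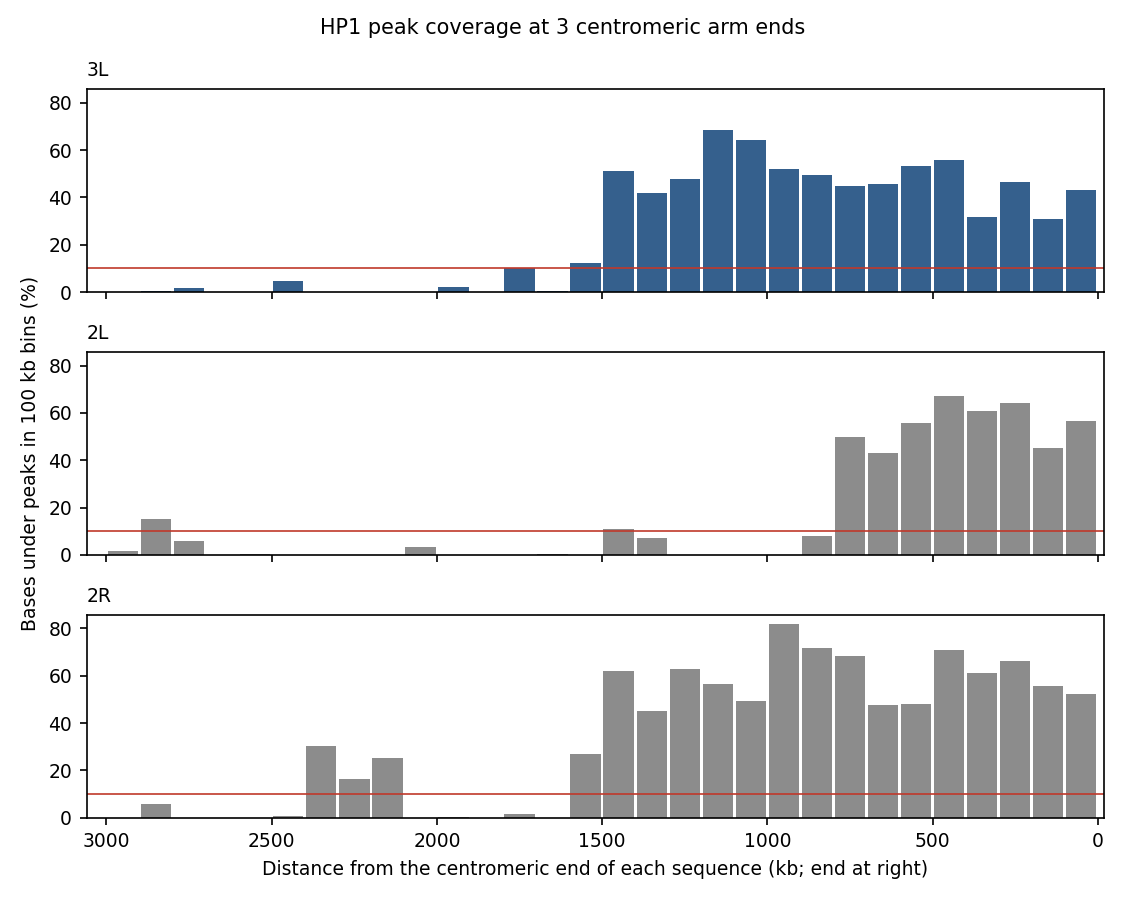
Share of bases under HP1 peaks in 100 kb bins counted from the centromeric end of 3L, 2L and 2R, with that end at the right; the last bin at the left is shorter, and red lines mark 10%. The run of bins above the line from the centromeric end is 1600 kb on 3L, 800 kb on 2L and 1600 kb on 2R.

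3LHet is separately assembled heterochromatin of the same arm. The dense part of 3L and 3LHet had similar values in several measures. Peaks covered 47.8% of 3L from 23.0 Mb and 42.8% of 3LHet. The median width was 710 bp on 3L and 669 bp on 3LHet. The median score was 21.4 on 3L and 22.4 on 3LHet, and the median gap 516 bp on 3L and 507 bp on 3LHet. Such medians were not particular to these 2 sequences. The 3.04 Mb at the 2L end had 703.5 bp, 22.0 and 495 bp for width, score and gap, and the 2R end 803 bp, 25.4 and 483 bp. The longest chains were 149702 bp on 3L and 149150 bp on 3LHet, in sequences of 1.54 and 2.55 Mb. They were 131573 bp at the 2L end and 204452 bp at the 2R end. In bins of 100 kb, coverage ranged from 31.0 to 65.2% with a median of 48.4% on 3L from 23.0 Mb, and from 17.0 to 64.8% with a median of 42.2% on 3LHet. The longest gap was 17883 bp on 3L from 23.0 Mb and 49983 bp on 3LHet. These are values side by side from 1 list, and no difference between the sequences was tested. The sources used here do not say how reads from repeats were placed, and the part this has in these values was not tested.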

How the data were processed

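Cross-linked chromatin from whole embryos of 8 to 16 h (1.8% formaldehyde, 15 min, per the labels' protocols) gave 2 HP1 ChIP samples and 1 input. The authors deposited 1 peak list on FlyBase release 5, made with a caller named MACS, per the file headers. The tools BWA, MACS2 and CASAVA (versions 1.7.0.2 and 1.7.0.3) come from the submitters' processing notes. Neither parameters, nor the peak threshold, nor the placing of repeated reads, nor any pooling of replicates is stated there. The score of each peak is the authors' deposited value, of unstated definition.

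Starts were read as counting from 0, since the smallest is 0, and positions are printed counting from 1. The end of the last 3L peak stands for the end of the arm, and likewise on 2L, while 2R was counted from its first base. Peaks were placed by midpoint, and coverage is the union of peaks, clipped to each bin (Python 3.11.15, pandas 2.3.3, numpy 2.4.6). Chains join gaps under 5 kb. The code was tested on simulated lists with known starts, shares and chains. Regions were named by rule: the 10 highest scores, 10 widest peaks, 10 chains with most peaks, 10 longest gaps, the highest score of each 500 kb band and the peaks at the limits. Single peaks, runs and merged blocks were added after seeing the values. The stretch, the rules and the measures were chosen with earlier results of these data known. With 1 list, no test was made. The gene table at hand is of Release 6, another build, so no gene or sequence is given here.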

Additional observations from a re-analysis of the deposited data

How the results depend on the processing

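The start of dense coverage stayed at 23.0 Mb with 50 or 200 kb bins, with limits of 5% or 20%, with only peaks scoring at least 20.96, and when the first bin at the limit was taken. These settings could hardly differ, because the grids of 50, 100 and 200 kb all have an edge at 23.0 Mb. The first peak beyond that edge, from 23010881, also follows 150742 bp without a peak. The agreement therefore does not place the start more closely than a bin edge. With 25 kb bins, chosen after seeing the data, it was 24.4 Mb, because 3 such bins beyond 23.0 Mb were below 10%, and the first 25 kb bin at the limit began at 22.075 Mb, in the group of 5 peaks there. The placing of the bins also mattered. With 100 kb bins counted from the end of the last 3L peak, the bin 1700 to 1800 kb from that end, before 23.0 Mb, was 10.2% covered. The next bin inward had 0.37%, and the one after it, at the edge of the dense part, had 12.2%. Joining below 2 kb and 10 kb gave 121 and 15 chains in place of 44, with longest spans of 73480 and 492011 bp. Chains of 5 or more then held 413 and 557 peaks in place of 544. With scores of at least 20.96 the longest chain was 80640 bp, chains of 5 or more held 220 of the 300 peaks with such scores, and 21.1% of bases were covered. With scores of at least 34.59, 17.6% were covered. Merging within 1 kb gave 29.2% covered and left 146 merged peaks in such chains. The share covered in the last over the first 500 kb of the whole stretch was 93.5 times, 43.0 with 250 kb windows, 66.9 with 1 Mb windows and 125.2 with scores of at least 20.96, but 0.80 with the first window taken from 23.0 Mb, which is past the step. The median width of the last minus the first window (168 bp) was 195 bp with 1 Mb windows and 166.5 bp without the 5% widest peaks, but -1769 bp with merging and -295 bp from 23.0 Mb. The median score difference (7.96) was 8.20, 7.53, -1.58 and -4.79 under these 4 settings. The first window held 4 peaks, which merging within 1 kb joins into 1. No paired analysis was possible because the list does not separate the samples. Depth and the placing of repeated reads are unknown, so weak or absent binding in the gaps cannot be told from reads that were too few or not placed.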

Other observations

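The deposited scores repeat. The 570 peaks carry 254 distinct scores, and the whole list of 15755 peaks carries 1884. The most frequent score on this stretch, 11.14, occurs in 16 peaks of 214 to 825 bp. In the whole list 243 peaks have it, and 271 peaks have 13.47. Small differences between low scores therefore fall on a coarse scale.

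The bases under HP1 peaks on the stretch build up as follows from the distal side: 25% are reached at position 23364033, 50% at 23687327 and 75% at 24072355. The widest 57 peaks, each at least 3146 bp, hold 41.3% of them. Of the 569 gaps, 65 are shorter than 100 bp.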
